A study of Mus musculus with 6 samples.

Results

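Mouse chromosome 14 was described here gene by gene in C2C12 cells, a mouse myoblast line that exits the cell cycle and forms myotubes when serum is withdrawn. The members were the protein-coding genes of that chromosome with at least 100 counts summed over the 6 libraries, after a set of muscle, interferon and housekeeping families had been left out by name. Of 896 protein-coding genes on the chromosome, 384 reached 100 counts, 26 of these were dropped by name and 358 remained, out of 55804 rows in the whole count table. The chromosome and its members had been selected on the measured fold change between the groups. Every fold change of a member below is therefore a description, and so is every count of members called. Nothing is read from those counts, and no p-value of a single member is given. Total RNA was sequenced from 3 Ctrl-gRNA libraries, whose genotype is labelled WT, and from 3 Prr33-gRNA libraries, labelled as having PRR33 knocked down by a CRISPR/Cas9 guide RNA. All 6 came from cells kept for 3 days in differentiation medium with horse serum. The labels name no more than 1 line for each guide and do not say whether replicates were separate cultures, so the spread between libraries may be technical.

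The libraries held 17006381 to 19118010 counts with the control guide and 17412383 to 19471762 with the Prr33 guide. Prr33 itself stood at 58.6 ± 3.76 CPM (counts scaled to library size; SD, n = 3) in Ctrl-gRNA and 43.7 ± 1.82 in Prr33-gRNA, a log2 fold change of -0.42 ± 0.06 (SE). All 8 muscle markers examined were detected, which matches the labelled cell type, and their summed level, carried mostly by Myh3 and Acta1, was 25937 to 26477 CPM with the control guide against 14514 to 15343 with the Prr33 guide. Not all went that way: Myf5 was at a log2 fold change of 1.003 and Ckm at 0.24. The 4 fibroblast markers summed to 185 to 207 CPM with the control guide against 16.1 to 18.3 with the Prr33 guide, and Thy1, one of them, had 4 counts in all. The leukocyte genes Ptprc and Cd3e, the neuronal genes Rbfox3 and Snap25 and the adipocyte genes Adipoq and Plin1 were at 0 in every library. The leukocyte list also held Cd68, with 142 counts in all, and the neuronal list Syp, with 14 counts. The 3 endothelial markers summed to 0.540 to 1.27 CPM with the control guide and 0 to 0.276 with the Prr33 guide, and Kdr among them had 38 counts, none of which came from Prr33-gRNA. The part of the marker differences in the chromosome 14 values was not tested.

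Genes that lie on 1 chromosome share a template number. In cells that have gained or lost a whole chromosome, the RNA of most of its genes is known to follow the number of copies, while single genes depart from it through their own regulation. C2C12 is a long-cultured line in which altered chromosome numbers are known. This is background: DNA was not measured in these samples, so fewer copies of the chromosome and less RNA from each copy cannot be told apart. In bulk RNA, a loss in some of the cells and a smaller loss in all of them cannot be told apart either, nor can fewer cells of a type and less RNA per cell.

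The 250 bases upstream of the RefSeq transcription start are shown for 5 members as examples of the 3 behaviours described below. These 5 were picked also because they differ in their content of CpG dinucleotides, which are printed in capitals. CpG-dense promoters are typical of broadly expressed genes and CpG-poor ones of tissue-restricted genes. The sequences are on GRCm38.p6, the assembly also called mm10, and run 5′ to 3′ on the strand of the gene. Tpt1 (chr14:75845006-75845255, plus strand) did not fall with the chromosome. Itm2b (chr14:73385290-73385539, minus strand) lay near the middle of the distribution. Mustn1 (chr14:30879007-30879256, plus strand), Irf9 (chr14:55603735-55603984, plus strand) and Anxa8 (chr14:34085729-34085978, plus strand) fell much further. The windows of Itm2b and Anxa8 lie outside the gene as the count table bounds it. Those of Tpt1 and Mustn1 overlap its annotated 5′ end, and that of Irf9 lies wholly inside it.
Tpt1: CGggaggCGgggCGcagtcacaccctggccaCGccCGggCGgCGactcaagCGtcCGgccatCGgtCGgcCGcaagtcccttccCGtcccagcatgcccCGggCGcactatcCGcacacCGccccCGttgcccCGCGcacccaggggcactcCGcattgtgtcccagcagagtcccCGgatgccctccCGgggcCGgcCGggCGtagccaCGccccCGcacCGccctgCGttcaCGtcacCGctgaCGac
Itm2b: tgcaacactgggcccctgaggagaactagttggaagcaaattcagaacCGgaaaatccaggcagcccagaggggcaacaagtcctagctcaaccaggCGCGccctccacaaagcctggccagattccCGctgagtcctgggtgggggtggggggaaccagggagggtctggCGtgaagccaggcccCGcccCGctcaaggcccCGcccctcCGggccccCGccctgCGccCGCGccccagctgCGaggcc
Mustn1: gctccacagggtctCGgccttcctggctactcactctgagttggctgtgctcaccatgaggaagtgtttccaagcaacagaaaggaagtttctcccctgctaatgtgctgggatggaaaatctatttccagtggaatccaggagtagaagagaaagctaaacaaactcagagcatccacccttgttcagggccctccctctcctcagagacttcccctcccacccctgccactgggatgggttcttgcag
Irf9: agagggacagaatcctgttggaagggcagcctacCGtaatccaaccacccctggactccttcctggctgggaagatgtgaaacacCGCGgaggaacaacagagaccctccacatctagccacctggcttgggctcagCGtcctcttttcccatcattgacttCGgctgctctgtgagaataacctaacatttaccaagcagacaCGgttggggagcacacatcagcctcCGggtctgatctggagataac
Anxa8: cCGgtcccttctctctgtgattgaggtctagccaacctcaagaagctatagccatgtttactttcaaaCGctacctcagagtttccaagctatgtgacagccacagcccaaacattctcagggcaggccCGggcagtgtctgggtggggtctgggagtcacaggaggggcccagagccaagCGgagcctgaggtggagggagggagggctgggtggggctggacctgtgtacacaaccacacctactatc
The stretches hold 33 CpG in Tpt1, 14 in Itm2b, 1 in Mustn1, 7 in Irf9 and 4 in Anxa8. The order of these picked genes is not that of the members at large. Over promoters of 300 bases, the median was 18 for members near or above no change. It was 24 for those between and 13 for those that fell further.

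Nearly every member was lower with the Prr33 guide, and most were lower by a similar factor. The median log2 fold change of the 358 members, Prr33-gRNA minus Ctrl-gRNA, was -0.87, which is 54.6% of the control level, and the quartiles lay at 46.8% and 63.5%. The fold change was below 0 for 342 members and above 0 for 16. Across 11176 protein-coding genes with at least 100 counts on the other autosomes and X, the median was 0.02. Measured library by library against the Ctrl-gRNA mean, the members' median was -0.88 ± 0.01 (SD, n = 3) in Prr33-gRNA and 0.00 ± 0.01 in Ctrl-gRNA. The authors' deposited length-scaled values gave a similar ratio: the median FPKM (fragments scaled by gene length and library size) of the members was 6.27 ± 0.0161 in Ctrl-gRNA and 3.50 ± 0.0684 in Prr33-gRNA, against 7.48 ± 0.0198 and 7.47 ± 0.0280 for the genes elsewhere.

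Adjusted p-values from the edgeR quasi-likelihood test over all 14651 tested genes fell under 0.05, in the lower direction, for 325 members, where 26.6% of all tested genes were called lower. In the higher direction 9 members were called, where 25.5% of all tested genes were, and 24 members were called in neither direction. All 3 Prr33-gRNA libraries lay below all 3 Ctrl-gRNA libraries for 327 members (29.3% of all tested genes), above them for 11 (28.6%), and overlapped for 20. Because this contrast chose the chromosome, nothing is read from these counts.

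The medians of the other 19 chromosomes ran from -0.13 on chromosome 15 to 0.14 on X, and the share of genes below 0 from 34.4% to 67.1%. The members took up 2.46% ± 0.00828 of all counts in Ctrl-gRNA and 1.52% ± 0.00696 in Prr33-gRNA, a ratio of 61.7%. That ratio is above the median gene's 54.6%, but they are scaled differently. The shares use plain library totals, whereas the median gene's value uses library sizes adjusted by edgeR (TMM). The gap between them therefore includes a difference in scaling. Without Tpt1 the shares were 2.28% and 1.32%, a ratio of 57.9%. How much of the gap is due to Tpt1 and how much to scaling was not tested. The 26 genes dropped by name also lay below 0 without exception, with a median of -1.25. The spread among members was not wider than elsewhere: at a mean of at least 10 CPM, the interquartile range of the log2 fold change was 0.35 for 278 members and 0.40 for 8873 other genes.

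**Figure D1:**
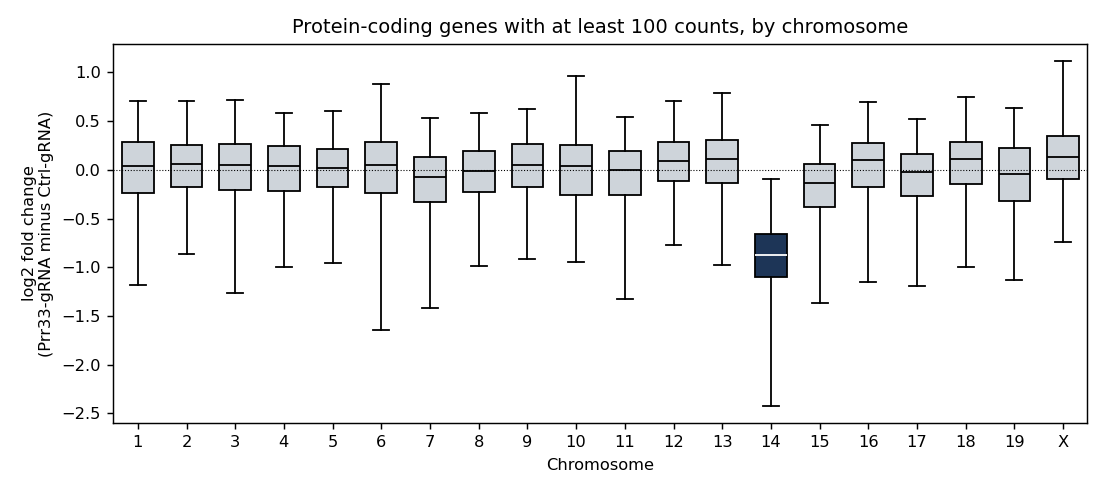
Log2 fold change of protein-coding genes with at least 100 counts, by chromosome; boxes span the quartiles, the bar is the median and whiskers reach the 5th and 95th percentiles. The box of the 358 members on chromosome 14 lies below 0 from edge to edge, with its median at -0.87, while the other medians lie between -0.13 and 0.14.

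Along the chromosome the fall was present everywhere that genes were measured. From Gm3636, the first member (start 6735685), to Tmtc4, the last (start 122918971), all 13 bins of 10 Mb had a negative median. Bins with at least 10 members ran from -0.71 at 10 to 20 Mb, where 16 of 19 members were called lower, to -0.96 at 50 to 60 Mb, where 72 of 77 were. Of all members 90.8% were called lower, so nothing is read from these counts. The thinly filled distal bins gave the smaller falls: -0.60 at 80 to 90 Mb with 2 members, -0.63 at 90 to 100 Mb with 7 and -0.60 at 110 to 120 Mb with 8. The running median over 21 consecutive members never came near 0, with its lowest value of -1.07 around Pabpn1, the nuclear poly(A)-binding protein (start 54892500), and its highest of -0.67 around Ndfip2, an adaptor of Nedd4-type ubiquitin ligases (start 105258573). Fold change and position showed no monotonic relation (Spearman -0.00 over 358 genes, which share libraries and chromosome). Adjacent members resembled each other little (Spearman 0.08 over 357 pairs). With the families dropped by name put back it was 0.11, and on the other chromosomes, where none were dropped, it ran from 0.09 to 0.28. Strand made little difference, with medians of -0.89 for 180 plus-strand and -0.87 for 178 minus-strand members.

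**Figure D2:**
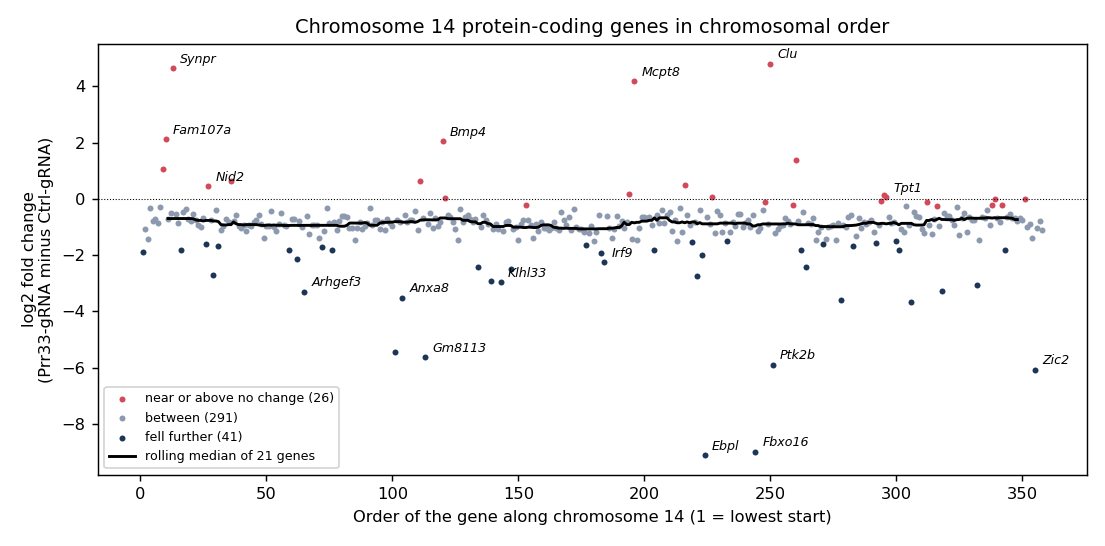
Log2 fold change of the 358 members in their order along the chromosome, coloured by whether they lay at or above -0.25 (26 genes), at or below -1.5 (41) or between (291); the black line is the running median of 21 genes. The line stays between -1.07 and -0.67 from end to end, and genes far from it are scattered rather than gathered at 1 place.

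Of the most abundant genes of the 13 bins, 10 lay between -1.17 in Lmo7 and -0.65 in Dnajc3. The other three were Nid2 at 0.45, Tpt1 at 0.05 and Diaph3 at -0.25, which are taken up further on. Vdac2, a pore of the outer mitochondrial membrane, stood at 325, 344 and 340 CPM with the control guide against 177, 172 and 171 with the Prr33 guide (log2 fold change -0.96 ± 0.04, SE). Nisch, which encodes nischarin, an integrin-binding protein of endosomes, stood at 930, 876 and 894 CPM against 434, 448 and 443 (-1.03 ± 0.04). In both the groups were separated by a gap several times wider than either group's own range. Mmp14, the membrane-anchored matrix metalloproteinase, stood at 258, 255 and 262 CPM against 117, 127 and 116 (-1.11 ± 0.05). Ctsb, the lysosomal protease cathepsin B, stood at 760, 758 and 798 CPM against 435, 434 and 417 (-0.85 ± 0.04). Ipo5, a nuclear import receptor near the distal end, stood at 346, 356 and 357 CPM against 205, 196 and 206 (-0.80 ± 0.04). These 5 genes, picked from the 10, have unrelated roles.

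From 10 CPM upward the size of the fall was similar at every abundance, below that it was more spread, and under 3 CPM also larger. Counted reads are compared here within a gene, so abundance is the mean CPM of a gene over the 6 libraries and is not scaled by length. From 10 to 30 CPM the 114 members had a median of -0.92, from 30 to 100 CPM the 115 members had -0.84, and above 100 CPM the 49 members had -0.91. The interquartile ranges of these bands were 0.37, 0.35 and 0.34, against 0.48, 0.37 and 0.39 for genes elsewhere. From 3 to 10 CPM the 43 members had a median of -0.97 with an interquartile range of 1.01, where other genes had 0.73. Under 3 CPM the 37 members had a median of -1.40 and an interquartile range of 2.48, where other genes had -0.11 and 1.08. Counting error is larger there, with a median SE of 0.33 against 0.05 above 100 CPM, and how much of the spread it makes up was not tested. The 100-count minimum was summed over both groups, so a rare member could enter through the group where it was high. Ebpl did so, with 198 control counts and 0 with the Prr33 guide. The part of this in the larger fall and wider spread was not tested. Across all 358 members the Spearman correlation of fold change with mean CPM was 0.09 and with gene length 0.06, given as descriptions over genes that share libraries.

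**Figure D3:**
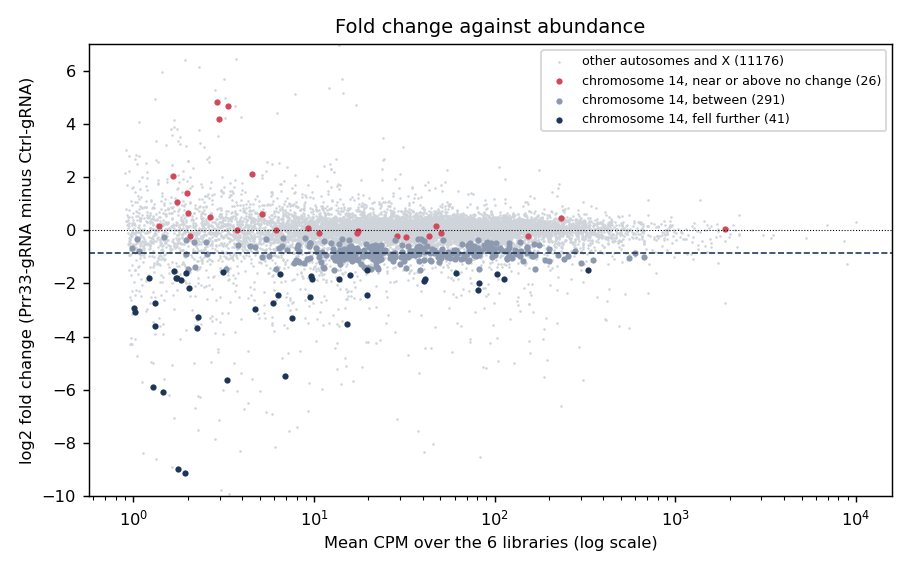
Log2 fold change against mean CPM over the 6 libraries (log scale); grey points are 11176 genes on other autosomes and X, coloured points are members, and the dashed line marks the members' median of -0.87. From 10 CPM upward the members form a narrow band around the dashed line; below that they spread in both directions. The vertical axis runs from -10 to 7, and 5 grey points lie outside it.

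The members were sorted by role into 10 lists, written with earlier results of these data known and holding 211 of the 358. In 8 of the 10 lists the median lay between -0.74 and -0.996, and the 147 members in no list had a median of -0.87. The other two were the interferon-responsive list and the neural and tissue-restricted list, with 5 and 2 members. The background of 26.6% called lower and 25.5% called higher applies to every count that follows. Of all 358 members 90.8% were called lower, so nothing is read from list counts near that share.

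All 18 measured members of the RNA processing list were called lower, with a median of -0.89 and a range from -1.22 to -0.21. Acin1, a component of the exon junction machinery, stood at 157, 163 and 152 CPM with the control guide against 82.1, 88.8 and 77.4 with the Prr33 guide. Zswim8, a substrate receptor for target-directed microRNA decay, stood at 206, 198 and 185 CPM against 91.0, 93.6 and 82.6. At the upper end of the list was Hnrnpc, a nuclear pre-mRNA-binding protein, at -0.21 ± 0.05, and 31.8% of its transcript also matched another gene, which had 122 counts.

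The secretory pathway, transport and protein turnover list had 42 measured members, of which 40 were called lower and none higher, with a median of -0.79. Itm2b, a transmembrane protein cleaved in the secretory pathway, stood at 753, 750 and 739 CPM against 369, 367 and 359, and per length at 272 and 133 FPKM. Mitochondrial and metabolic genes had a median of -0.95, with 32 of 35 called lower and 1 higher. Ghitm, an inner membrane protein, stood at 481, 472 and 484 CPM against 229, 210 and 229. Sucla2, a subunit of succinyl-CoA synthetase, stood at 167, 167 and 167 CPM against 94.3, 93.6 and 91.7. In each of these 3 genes the libraries of a group lay close together and the groups did not overlap.

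Muscle and cytoskeletal members had a median of -0.996, with 20 of 21 called lower and 1, the neurofilament gene Nefl, higher. Lmo7, a LIM and PDZ protein of cell junctions and muscle, stood at 280, 282 and 270 CPM with the control guide against 121, 118 and 130 with the Prr33 guide. Fermt2, the integrin activator kindlin-2, stood at 207, 211 and 222 CPM against 111, 108 and 107. Anxa7, a calcium-dependent membrane-binding annexin, stood at 188, 200 and 194 CPM against 112, 110 and 109. Of the 8 muscle markers, which went in both directions as given above, the part in this list was not tested.

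Transcription and chromatin genes had a median of -0.95, with 30 of 32 called lower and none higher. Tsc22d1, a leucine zipper protein induced by transforming growth factor beta, was the largest fall among the 10 most abundant members, at 477, 480 and 501 CPM against 172, 169 and 173 (log2 fold change -1.504 ± 0.04). Klf5, a Krüppel-like factor, stood at 213, 223 and 220 CPM against 119, 107 and 115. Pbrm1, a subunit of a SWI/SNF remodelling complex, was at -0.62 ± 0.05 and Zmiz1, a transcriptional coregulator, at -0.49 ± 0.06. Cell cycle and genome maintenance genes had a median of -0.74, with 17 of 20 called lower and none higher. Wapl, which releases cohesin from chromatin, stood at 135, 135 and 138 CPM against 80.0, 81.8 and 81.2.

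Signalling ligands, receptors and kinases had a median of -0.75, with 24 of 26 called lower and 1, Bmp4, higher. Bmpr1a, a receptor for bone morphogenetic proteins, stood at 157, 163 and 170 CPM against 96.5, 94.8 and 99.1, while its ligand Bmp4 went the other way from a very low level. Extracellular matrix genes and their enzymes had a median of -0.74, with 8 of 11 called lower and 2, Nid2 and Clu, higher. Bmp1, a procollagen-processing protease, was at -1.46 ± 0.05 and Lgals3, the lectin galectin-3, at -0.58 ± 0.05, so members of this list lay far apart. The fibroblast markers given above were lower by unlike amounts, with the collagen gene Col1a1 at -4.26, Dcn at -2.20 and Pdgfra at -0.49. Thy1 had too few counts for a fold change. The part of these markers in this list was not tested.

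All 5 measured members of the interferon-responsive list were called lower, and each lay below the median of the chromosome, from -3.68 to -1.45. Irf9, the DNA-binding subunit of the complex that carries type I interferon signals to the nucleus, stood at 135, 137 and 130 CPM with the control guide against 29.5, 27.4 and 27.1 with the Prr33 guide (-2.26 ± 0.06). Rnf31, the catalytic subunit of the linear ubiquitin chain assembly complex, stood at 66.8, 62.7 and 62.7 CPM against 16.1, 16.6 and 17.7 (-1.93 ± 0.07). Setdb2, a SET-domain histone methyltransferase family member, was at -1.49 ± 0.13 and Epsti1, an interferon-induced gene, at -3.68 ± 0.35. The neural list had only 2 members past 100 counts of 31 named: Synpr rose and the transcription factor gene Pou4f1 fell.

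**Figure D4:**
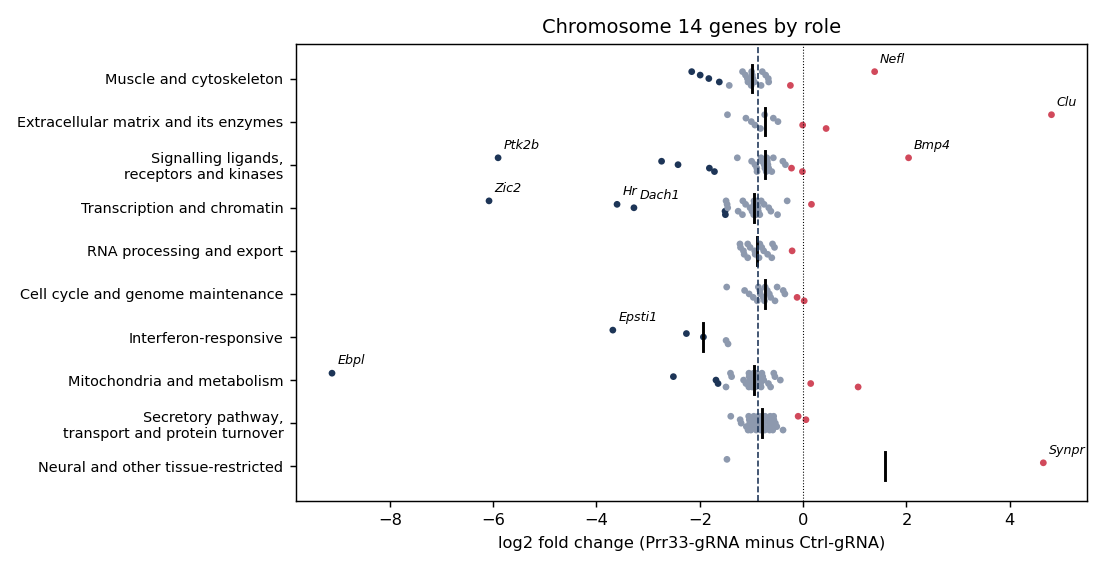
Log2 fold change of the members of each role list; each point is a gene, red at or above -0.25, dark blue at or below -1.5 and grey between, the black bar is the list median, the dashed line the median of all members (-0.87) and the dotted line no change. In 8 of the 10 lists the bar lies between -0.74 and -0.996; it lies at -1.93 for the 5 interferon-responsive genes.

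A small set of genes did not follow the chromosome. A log2 fold change of -0.25 or above was found in 26 members, of which 16 were above 0. Of the 26, 9 were called higher, 4 were called lower and 13 were called in neither direction. The nearest members on either side of that edge were Diaph3 at -0.25 and Enox1 at -0.26, so the band is a convenience and not a break in the values. These genes were more often rare: 15 of the 26 averaged under 10 CPM, as did 80 of all 358 members.

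Tpt1 was by far the most abundant of them. It encodes the translationally controlled tumour protein, a small cytosolic protein whose RNA is regulated mainly at translation. It stood at 1897, 1777 and 1850 CPM with the control guide against 1932, 1897 and 1909 with the Prr33 guide, and per length at 769 and 802 FPKM. The groups overlapped, and the log2 fold change was 0.05 ± 0.04; scaled by library size alone it was 0.14 and was called higher. Of its transcript, 44.4% matched other genes at 95% identity or more, chiefly Tpt1-ps3 on chromosome 6, a pseudogene that itself held 25362 counts, so how reads were divided between the copies bears on the value and was not tested.

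The 2 members before Tpt1 in start order also lay near no change. Slc25a30, a mitochondrial carrier (start 75760117), stood at 42.0, 47.4 and 45.6 CPM against 50.3, 47.5 and 51.6 (0.15 ± 0.07), so its Prr33-gRNA libraries lay just above its Ctrl-gRNA libraries. It was called in neither direction, but was called higher without Ctrl-gRNA replicate 2 (0.19), without Prr33-gRNA replicate 2 (0.18) or scaled by library size alone (0.24). Cog3, a subunit of the conserved oligomeric Golgi complex (start 75702350), stood at 56.0, 50.1 and 49.8 CPM against 48.7, 46.9 and 50.2 (-0.10 ± 0.06), and its groups overlapped. These 3 genes span 146 kb, and no other run of neighbours near or above no change had more than 2 members. The member on the other side, the transcription factor subunit gene Gtf2f2, starts 51.8 kb beyond Tpt1 and was at -0.67 ± 0.10. For Slc25a30 and Cog3, 0% of the transcript matched other genes at 95% identity or more.

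Nid2, which encodes the basement membrane protein nidogen-2, was the most abundant member that rose. It stood at 201, 202 and 192 CPM with the control guide against 259, 282 and 268 with the Prr33 guide (0.45 ± 0.04), with no overlap. Its nearest members lay well below 0, with Gm2237 at -1.60 and Rtraf, a tRNA ligase complex subunit, at -0.77. Both are limited as references. Gm2237 averaged 1.94 CPM, and 100% of its transcript matched other genes. For Rtraf 61.8% matched, and 22.7% of its exonic bases were shared with Nid2. Mss51, a muscle-enriched mitochondrial protein gene, stood at 4.27, 4.48 and 3.45 CPM against 6.68, 6.52 and 5.65 (0.62 ± 0.18), while Anxa7 and Ppp3cb on either side were at -0.81 and -0.79.

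The other members that rose were rare transcripts with few control reads. Fam107a, an actin-associated stress-response gene, had 25, 25 and 37 counts with the control guide against 144, 136 and 134 with the Prr33 guide (2.12 ± 0.21). Synpr, which encodes the synaptic vesicle protein synaptoporin, had 3, 4 and 6 counts against 155, 95 and 115 (4.65 ± 0.33). In both, the lowest Prr33-gRNA library was several times the highest Ctrl-gRNA library. A further 5 averaged under 3 CPM, and of these Clu, Mcpt8 and Nefl were chosen for naming after their values were seen. Clu, the secreted chaperone clusterin, had 5, 2 and 3 counts against 86, 120 and 109, and Mcpt8, a mast cell and basophil protease gene, had 4, 4 and 8 against 79, 99 and 145. Bmp4 had 8, 16 and 9 counts against 58, 39 and 53. Nefl had 21, 17 and 19 counts against 47, 39 and 78, and shared 32.8% of its exonic bases with Nefm. Acox2, a peroxisomal bile acid oxidase gene next to Fam107a, had 25, 19 and 15 counts against 41, 40 and 54. Each gene of this paragraph reached the 100-count minimum only with its Prr33-gRNA reads.

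Other members lay close to 0. Dock9, a guanine nucleotide exchange factor for Cdc42, stood at 17.9, 18.0 and 17.1 CPM against 18.0, 15.6 and 18.8 (-0.01 ± 0.10). Cdkn3, a phosphatase of cyclin-dependent kinases, stood at 3.9, 3.5 and 3.7 CPM against 3.5, 4.2 and 3.7 (0.02 ± 0.20). Gpc6, a cell-surface glypican, was at -0.01 ± 0.18. The groups overlapped in all 3, and the wide error of Cdkn3 and Gpc6 leaves moderate falls within range. Trim13, a ubiquitin ligase gene at 0.08 ± 0.13, and Tpm3-rs7 at -0.21 ± 0.08 have near-copies: 75.6% of the first and 98.1% of the second matched a gene on another chromosome, which for Trim13 is Gm9359 on chromosome 12, with 0 counts, and for Tpm3-rs7 is Tpm3 itself on chromosome 3 (45618 counts, log2 fold change -0.39), so the value of Tpm3-rs7 is uncertain. Over the alternative fits of Tpm3-rs7 and Diaph3, a formin, a lower call was lost 8 times. The losses included Tpm3-rs7 under DESeq2 (-0.20) and without Ctrl-gRNA replicate 2 (-0.18), Prr33-gRNA replicate 1 (-0.20) or Prr33-gRNA replicate 2 (-0.17). They also included Diaph3 without Ctrl-gRNA replicate 3 (-0.17). Scaled by library size alone, Tpm3-rs7 was at -0.12 and Diaph3 at -0.16.

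**Figure D5:**
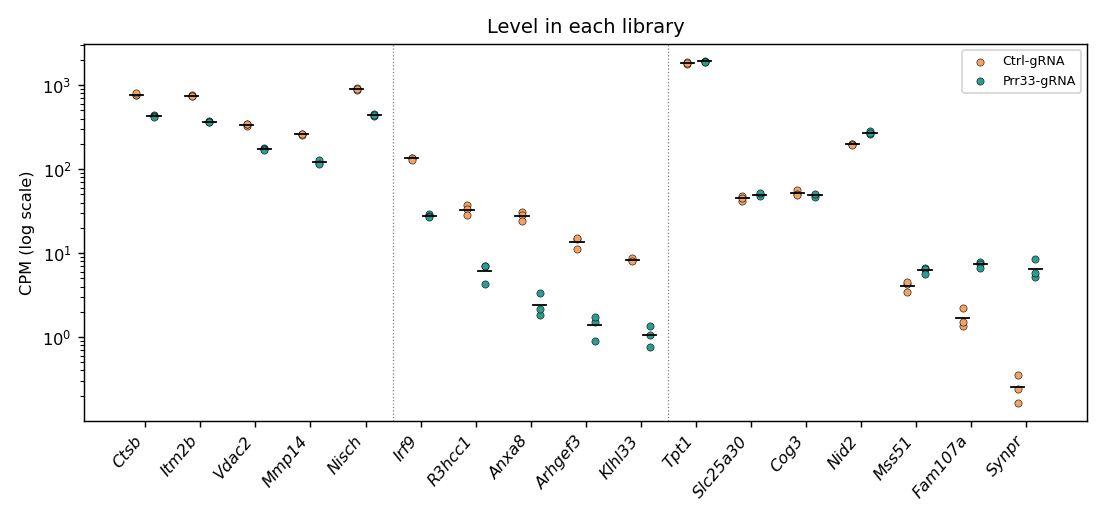
CPM (log scale) of 17 members in each of the 3 Ctrl-gRNA and 3 Prr33-gRNA libraries, with bars at the means. From left to right the dotted lines separate 5 genes near the median of the chromosome, 5 that fell further and 7 that stayed near or above no change; the groups overlap for Tpt1 and Cog3.

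At the other end, 41 members had a log2 fold change of -1.5 or below, and all but 1 of them, Entpd4b, were called lower. The values again run on through the edge, with Tsc22d1 at -1.504 and Pck2, the mitochondrial form of phosphoenolpyruvate carboxykinase, at -1.493. Of the 41, 28 averaged under 10 CPM and 13 at least 10 CPM.

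Among those of at least 10 CPM, Anxa8 fell furthest. This annexin gene stood at 30.9, 28.2 and 24.4 CPM with the control guide against 3.31, 1.82 and 2.15 with the Prr33 guide (-3.52 ± 0.15), which is 8.73% of control. The members on its sides, Mapk8 and Shld2, were at -0.84 and -0.59. R3hcc1 stood at 37.2, 33.1 and 28.7 CPM against 7.06, 7.07 and 4.25 (-2.44 ± 0.16). Mustn1, a small nuclear protein gene of the musculoskeletal system, was named after its values were seen, at 188, 167 and 169 CPM against 54.3, 47.8 and 45.9 (-1.82 ± 0.06). In all 3 genes every Prr33-gRNA library was far below every Ctrl-gRNA library.

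At lower abundance, Arhgef3, an exchange factor for RhoA, stood at 11.1, 14.8 and 15.1 CPM against 1.52, 1.71 and 0.90 (-3.31 ± 0.20). Klhl33, a Kelch-family gene, stood at 8.32, 8.84 and 7.97 CPM against 0.76, 1.05 and 1.35 (-2.98 ± 0.22). Gng2, a G protein gamma subunit gene, was at -2.72 ± 0.21, and Peli2, a ubiquitin ligase gene of innate immune signalling, at -2.42 ± 0.19. Pnp, which encodes purine nucleoside phosphorylase, was at -2.51 ± 0.17; 36.9% of its transcript matched its neighbour Pnp2, which had 4 counts in all.

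A few members nearly disappeared, and these were named after their values were seen. They reached the 100-count minimum through their control reads. Ebpl, a relative of the sterol isomerase Ebp, was represented by 198 control reads and by 0 reads with the Prr33 guide, so it was at least 72.0-fold lower when the 3 counts that a 0 allows over the group are used. Fbxo16, an F-box gene, had 183 and 0 counts, at least 66.5-fold lower. Zic2, a zinc finger gene of neural development, had 147 and 2 counts, a ratio of 80.1 (95% interval 21.8 to 668, counting error only). Ptk2b, which encodes the focal adhesion kinase relative Pyk2, had 130 and 2 counts, a ratio of 70.9 (19.2 to 591). Clu and Ptk2b are next to each other among the members and moved in opposite directions.

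Genes that fell further were spread over most bins of 10 Mb. At 60 to 70 Mb they were 9 of 51 members, and at 50 to 60 Mb 6 of 77. They were neighbours only in 3 pairs, among them Rnf31 with Irf9 and Tsc22d1 with Serp2. Rnf31 and Irf9 overlap by a short stretch at the 3′ end of one and the 5′ end of the other, sharing 2.15% and 2.28% of their exonic bases, and 55603571 to 55603693 is counted in both spans. Their flanking members, Emc9 and Ipo4, were at -0.59 ± 0.19 and -0.61 ± 0.07.

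Promoter composition, which the choice of members did not use, is given by band as a description. A RefSeq promoter of 300 bases, 250 before and 50 after the start, was matched by symbol for 269 of the 358 members. Their median CpG count was 23, against 7 for all 32851 RefSeq promoters available. Those were not limited to genes with at least 100 counts, as the members were. The difference is therefore not read as a feature of chromosome 14, and expressed genes of other chromosomes were not compared. The median was 24 in the 220 members between the bands, 18 in the 19 near or above no change and 13 in the 30 that fell further. With members of at least 10 CPM only, the medians were 24 in 193, 25 in 7 and 11.5 in 8. The bands themselves were set on the fold change, so no test is given, and a count of CpG says nothing of methylation, which was not measured.

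Copies elsewhere in the genome touched a minority of members. At least 30% of the transcript matched another gene in 19 members, whose median was -0.77, and the other 339 had a median of -0.89. Of the 19, 4 were near or above no change and 5 fell further, among them Gm8113, Gm3636 and Gm2237, whose matches lie on chromosome 14 as well. At least 25% of exonic bases were shared with an overlapping gene in 15 members, and the sources used here do not give the strand setting of the counting, so reads of such pairs may not be separated. At the edge of the 100-count minimum, Npm2 with 105 counts and Armh4 with 106 were just inside, and Gm3839 with 93 and Nalcn with 79 just outside. Of the 512 protein-coding genes below the minimum, 350 had 0 counts in all 6 libraries.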

How the data were processed

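RNA from 6 C2C12 libraries was analysed. Per the submitters' processing notes, the authors used CASAVA, HISAT2 2.0.5 and featureCounts 1.5.0-p3 on mm10. They deposited raw read counts per gene, with FPKM values in a second table whose formula is not stated in the sources used here. The 333 rows with an identifier other than an Ensembl ID held 0.199% to 0.252% of counts and were kept in library sizes and tests. Counts were fitted with edgeR 4.0.16 (TMM, quasi-likelihood F test, Benjamini-Hochberg over 14651 genes that passed the low-count filter, as all 358 members did), without a replicate block; standard errors came from the F statistic. Same-numbered replicates did not deviate together. CPM use TMM-scaled library sizes. BLAST+ 2.17.0 and GENCODE M21 (357 members with identical bounds) gave copies and overlaps. The fits were tested on simulated counts.

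The members and gene lists were chosen with earlier results of these data known. Genes were named by rule: the most abundant member of each 10 Mb bin, the 10 highest and 10 lowest fold changes at 3 CPM or more, up to 4 genes per list, the 10 most abundant, the neighbours of the extremes and the genes around the count minimum. Sequencing depth is given in ranges. Alternatives were other scalings, filters, count minimums, thresholds, tools (DESeq2, limma), the deposited FPKM and each library left out. Some named genes are not reported here.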

Additional observations from a re-analysis of the deposited data

How the results depend on the processing

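Alternatives were tried 1 at a time. The median log2 fold change of the members, -0.87, was -0.89 with scaling factors computed without chromosome 14, -0.78 scaled by library size alone, -0.85 and -0.70 by limma on log2 FPKM with pseudocounts of 0.1 and 1, and -0.89 with a minimum of 50 counts; the pseudocount of 1 compresses rare genes by its construction. Leaving out 1 library at a time it ran from -0.89 to -0.86. With members averaging at least 10 CPM, 1 was called higher, 11 were near or above no change and 13 fell further; with a minimum of 500 counts these were 3, 15 and 21. Under limma with a pseudocount of 1, 11 members fell further. Band edges of 0 and -2 held 16 and 21 members. Leaving out members that match other genes gave a median of -0.89; this and the 10 CPM limit were chosen after seeing the data, as was leaving out Tpt1, which gave a ratio of count shares of 57.9%. All chromosome 14 rows gave 59.7%. Leaving out 1 library, 323 to 326 members were called lower, 9 to 11 higher, 26 to 28 were near or above no change and 41 to 46 fell further, and the ratio was 61.6% to 61.9%. Of the 325 called lower, 320 to 325 kept the call under each of the other fits. With the replicate number as a block, 326 were called lower, 9 higher and 42 fell further; the numbers correlated by -0.02, -0.00 and 0.06, so nothing shows that they pair the samples. Of 1563 values of 92 named genes, 12 changed side of the threshold, in Diaph3, Slc25a30, Tpm3-rs7 and Tpt1, and none reversed. Depth limits the genes under 3 CPM.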

Other observations

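Genes of chromosome 14 that do not encode proteins were lower too, with differences between classes. Of 72 such genes tested, 36 were called lower and 1 higher by edgeR (adjusted p under 0.05), with a median log2 fold change of -0.69. On the other autosomes and X, 2407 such genes had a median of -0.05, with 427 called lower and 257 higher. The 39 long noncoding RNAs had a median of -1.09, with 25 called lower and none higher. Elsewhere 1018 of them had a median of -0.11, with 190 called lower and 89 higher. Dleu2, the long noncoding host transcript next to Trim13, was represented by 305, 302 and 287 reads with the control guide against 148, 132 and 180 with the Prr33 guide (-1.09 ± 0.12). The 22 processed pseudogenes had a median of -0.29, with 6 called lower and 1 higher. Elsewhere 714 of them had a median of -0.03, with 126 called lower and 62 higher. The lower calls among the 22 are near the 26.6% over all tested genes, so nothing is read from them. The most abundant of the 22, Rps3a2, had 7116, 6288 and 6875 counts against 6731, 6905 and 7003 (-0.10 ± 0.04). Processed pseudogenes are copies of genes elsewhere, and how reads were divided between the copies was not tested.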
